A study of Homo sapiens with 24 samples.

Results

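The probes described here are those whose signal was lower after 6 hours of interferon gamma (IFNγ) in SW-13 cells. A probe was a member if its detection p-value was under 0.01 in all 12 untreated arrays and if its +IFN minus -IFN difference of group means, averaged over the 4 siRNA backgrounds, was -0.3 or less on the log2 scale. A difference of -0.3 is a fall of 18.8%. Probes that siSUZ12 alone moved by 1 or more on the log2 scale in untreated cells were left out. Of 47231 probes on the array, 13567 passed the detection requirement, 97 of these reached the cut, 6 of the 97 were left out for their siSUZ12 change, and 91 remained as members. The members were thus 0.671% of the detected probes.

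SW-13 is an adrenocortical carcinoma line that lacks BRG1, one of the alternative ATPases of the SWI/SNF chromatin remodelling complex. The cells were transfected with control siRNA (siCtrl) or siRNA to SUZ12 (siSUZ in the sample names), each at 50 nM, with or without siRNA to BRM (siBRM) at 75 nM, and were then left untreated (-IFN) or exposed to IFNγ for 6 hours (+IFN). This gave 8 groups of 3 arrays, which the study's methods call biological replicates. The siBRM cells received 125 nM of siRNA in total and the others 50 nM, so an effect of siBRM and an effect of total dose cannot be told apart. All groups share the absence of BRG1, and no group was left without transfection.

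IFNγ is a cytokine that binds a cell surface receptor and changes transcription within hours. The pathway is best known for the genes it induces, including those for antigen presentation and antiviral defence, but a smaller set of transcripts falls during the same response. SUZ12 is a core subunit of Polycomb repressive complex 2 (PRC2), which methylates histone H3 at lysine 27 and keeps genes repressed. BRM is the alternative ATPase to BRG1 in SWI/SNF. The paper describes SW-13 as without SWI/SNF activity, and reports that BRM was marginally induced when PRC2 was depleted.

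The files pair no probe ID with a gene symbol, and none was supplied otherwise. The members are therefore described by their signals, a few by probe ID and others by their rank, in which rank 1 is the member with the largest fall. For the same reason the knockdown of SUZ12 and BRM, the cell type markers of SW-13 and the gene pathways behind the members could not be read from these arrays. Mean array intensity before scaling lay between 532 and 635, and each array detected between 15223 and 16799 probes. Signals below are intensities after each array was scaled to the same mean.

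The falls were small on the scale used. The mean IFNγ difference of the members ran from -1.01 to -0.30 with a median of -0.35 on the log2 scale, which is a fall of 50.2% at one end, 18.8% at the other and 21.5% at the median. The median over all detected probes was -0.02. One member fell by 1 or more on the log2 scale, 5 lay between -1 and -0.5, 13 between -0.5 and -0.4, and 72 between -0.4 and -0.3. Because this difference chose the members, these values are a description and were not tested. The last 3 members inside the cut had differences of -0.302, -0.302 and -0.301, and the first 3 detected probes outside it had -0.299 each, so the cut divides a continuous run of values. With neqc, an alternative to this scaling, the rank 1 and rank 2 members had differences of -1.54 and -1.03 and the median member -0.44.

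The response to IFNγ was unequal in its 2 directions. Among the detected probes 332 reached 0.3 or more against 97 at -0.3 or less, and 60 reached 1 or more against 1 at -1 or less. The same rule turned to the other direction, with the same siSUZ12 limit, gave 322 raised probes with a median of 0.52.

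Members were transcripts of middling signal. Their mean untreated signal ran from 178 to 6717 with a median of 527, beside a median of 474.5 for all detected probes. When the detected probes were divided into 4 equal bins by untreated signal, the bins held 8, 32, 39 and 12 members from the weakest to the strongest. The raised probes were spread as 70, 78, 110 and 64 over the same bins. The weakest bin lay nearest the array's detection limit, and the part of that limit in its count of members was not tested. The median difference of the members was -0.39 in the weakest bin and lay between -0.35 and -0.34 in the others. The member with the strongest untreated signal, at rank 90, averaged 6618 ± 275.7 (SD, n = 3) in siCtrl-IFN arrays and 5890 ± 449.2 in siCtrl+IFN arrays, and its lowest group mean was 4854 ± 144.3 in siSUZ siBRM+IFN arrays.

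Most members were still expressed after IFNγ. Of the 91, 85 were detected in all 12 +IFN arrays, and the arrays of treated cells detected between 86 and 90 members each. The 6 exceptions held ranks 1, 3, 5, 12, 20 and 33. The rank 3 member came closest to the detection limit. Its group means ran from 158.1 to 199.5 in untreated cells and from 120.7 to 129.6 with IFNγ, and 2 of 12 +IFN arrays detected it. The rank 5 member was detected in 6 of the 12, which were the arrays of the siSUZ+IFN and siSUZ siBRM+IFN groups. Since these are bulk RNA samples, a lower level in every cell and fewer cells that carry the transcript cannot be told apart.

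The rank 1 member was the probe ILMN_2131861, which fell by 1.01 on the log2 scale on average over the backgrounds. Its signals were 304.7, 326.4 and 290.2 in siCtrl-IFN arrays and 136.8, 143.1 and 138.6 in siCtrl+IFN arrays. In siSUZ cells they were 384.9, 388.2 and 395.6 untreated and 212.5, 211.4 and 173.3 with IFNγ. The treated arrays lay far below the untreated ones in both, and the siSUZ arrays lay above the siCtrl arrays at either state. In siCtrl siBRM cells the signals were 337.3, 373.9 and 349.3 untreated and 166.8, 155.8 and 158.9 with IFNγ, and in siSUZ siBRM cells they were 344.8, 311.9 and 287.5 untreated and 200.2, 189.1 and 163.9 with IFNγ. No treated array reached the lowest untreated array in any background. The IFNγ differences were -1.14, -0.98, -1.14 and -0.77 in siCtrl, siSUZ, siCtrl siBRM and siSUZ siBRM cells. The smaller falls in the siSUZ12 backgrounds gave an interaction of 0.26 (SE 0.09), which did not pass limma's test (adjusted p = 0.413). The treated signals stood near the array's detection limit, and 11 of 12 +IFN arrays detected the probe.

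The rank 2 member, ILMN_1791366, fell by 0.85 on the log2 scale and was lowered by all 3 manipulations. Its signals in siCtrl cells were 925.1, 867.8 and 979 untreated and 640, 652.5 and 605.3 with IFNγ, and in siSUZ cells 720.2, 686.6 and 682.8 untreated and 378.7, 373.3 and 336.9 with IFNγ. In siCtrl siBRM cells they were 633.1, 663.7 and 680.3 untreated and 339.9, 362 and 314 with IFNγ, and in siSUZ siBRM cells 569.4, 487.9 and 485.8 untreated and 279, 265.4 and 255.2 with IFNγ. Treated and untreated arrays did not overlap in any background. The siCtrl-IFN mean was 3.47 times the siSUZ siBRM+IFN mean, the widest ratio between group means of any member. For all 91 members that ratio ran from 1.40 to 3.47, with a median of 1.73.

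All 91 members were lower with IFNγ in each of the 4 siRNA backgrounds. The average of these 4 differences chose the members, so their agreement is a description and was not tested. Of detected probes, 53.7% were lower in siCtrl, 61.1% in siSUZ, 54.8% in siCtrl siBRM and 59.9% in siSUZ siBRM cells. The median difference of the members was -0.29 in siCtrl cells, -0.36 in siSUZ cells, -0.34 in siCtrl siBRM cells and -0.46 in siSUZ siBRM cells, beside medians between -0.03 and -0.01 for all detected probes. The fall was deepest in siSUZ siBRM cells for 56 members and in siCtrl cells for 5, and it was shallowest in siCtrl cells for 47 and in siSUZ siBRM cells for 6. The middle part of the members, from the first to the third quartile, spanned -0.34 to -0.23 in siCtrl cells, -0.41 to -0.30 in siSUZ cells, -0.40 to -0.26 in siCtrl siBRM cells and -0.59 to -0.36 in siSUZ siBRM cells, so the backgrounds overlapped widely over members. A difference of -0.3 or less was present in siCtrl cells for 42 members, in siCtrl siBRM cells for 60, in siSUZ cells for 66 and in siSUZ siBRM cells for 85. The first quartile over detected probes was -0.08 in siCtrl, -0.09 in siCtrl siBRM, -0.11 in siSUZ and -0.11 in siSUZ siBRM cells. Since the average of the 4 differences chose the members, these counts per background are a description as well.

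The separation of single arrays was least complete in siCtrl cells, for members and for detected probes alike. All 3 +IFN arrays lay below all 3 -IFN arrays for 76 members in siCtrl cells, 83 in siCtrl siBRM cells, 89 in siSUZ siBRM cells and 90 in siSUZ cells. The shares of detected probes, in the same order, were 11.1%, 14.3%, 16.4% and 17.6%. The separation held in all 4 backgrounds for 69 members, beside 0.563% of all probes and 1.9% of the detected probes. In at least 3 backgrounds it held for 87 members (1.8% of all probes, 5.81% of detected probes), and in at least 2 for all 91 (5.88% and 14.9%). The rule used this contrast, so nothing is read from these shares. Each treated array taken alone gave a member median between -0.27 and -0.30 in siCtrl cells, -0.34 and -0.37 in siSUZ cells, -0.30 and -0.36 in siCtrl siBRM cells and -0.42 and -0.48 in siSUZ siBRM cells. The 3 siSUZ siBRM+IFN arrays thus had the lowest member medians of the 12. Between 88 and 91 members were below the untreated mean in each of the 12 treated arrays.

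Arrays that took no part in the choice gave the same measure independently. When the rule was applied to 2 replicate numbers and the members so chosen were read in the remaining one, the median difference was -0.29 in replicate 1, -0.36 in replicate 2 and -0.32 in replicate 3. The lists held 114, 85 and 105 probes, and 113, 85 and 105 of them were lower with IFNγ in the replicate left out, where 57.1%, 64.3% and 52.2% of all detected probes were. A difference of -0.3 or less was reached by 51, 68 and 59 of these probes, beside 0.901%, 1.67% and 0.92% of the detected probes. The medians in the arrays used for the choice were -0.35, -0.35 and -0.34. Replicate 1 therefore gave back less of the fall than the others. Of the members, 60 were chosen by every pair of replicates. Each of the 91 was chosen by at least 1 pair, but nothing is read from this. The average over 3 replicates is the mean of the pair averages, so that count was nearly fixed in advance.

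Whether SUZ12 knockdown changed the size of the fall was tested with the SUZ12 by IFNγ interaction, the IFNγ difference in siSUZ12 cells minus that in siCtrl cells averaged over cells without and with siBRM. This quantity has zero covariance with the average that chose the members, but it shares the siSUZ-IFN and siCtrl-IFN arrays with the limit on the untreated siSUZ12 difference. Of the 6 probes left out by that limit, 1 was called in the lowered direction and 0 in the raised direction. At an adjusted p under 0.05 in limma, 1 member had a deeper fall with siSUZ12 and 0 had a shallower one, while 33 members had an unadjusted p under 0.05 (29 deeper, 4 shallower), which is 36.3% of members beside 8.03% of detected probes. Among all probes 0.0529% were called in the lowered direction and 0.269% in the raised direction, and among detected probes 0.0958% and 0.442%. The interaction was below 0 for 73 of 91 members, or 80.2%, beside 56.9% of detected probes, and its median was -0.11 beside -0.02. The median SE of a member was 0.08, near the size of the median interaction. Of the 322 raised probes 52 were called, or 16.1%, in the raised direction.

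The member called was ILMN_1658144 at rank 55, with an interaction of -0.52 (SE 0.08, adjusted p = 0.000166 in limma). In siCtrl cells its signals were 697.1, 686.4 and 711.6 untreated and 616.9, 628.9 and 655 with IFNγ, and in siSUZ cells 709.4, 777.7 and 714.7 untreated and 639.6, 569 and 590.7 with IFNγ. In siCtrl siBRM cells they were 775.7, 758.3 and 781.8 untreated and 823.3, 728.4 and 742.7 with IFNγ, which overlapped. In siSUZ siBRM cells they were 1055, 878.9 and 995 untreated and 558.1, 515.4 and 493.7 with IFNγ, so the probe had both its highest and its lowest group there. The background differences were -0.14, -0.29, -0.02 and -0.90 in siCtrl, siSUZ, siCtrl siBRM and siSUZ siBRM cells. Without replicate 3 the interaction was -0.50 and missed the threshold (adjusted p = 0.0513), and over 9 alternatives it lay between -0.58 and -0.48 with adjusted p between 1.05e-06 and 0.0513.

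Taken separately, the interaction was called for 0 members in cells without siBRM, and in the lowered direction for 3 members in siBRM cells. An unadjusted p under 0.05 was found for 14 members (15.4%, beside 5.28% of detected probes) without siBRM and for 23 (25.3%, beside 5.61%) with it. The shares of all probes called as lowered were 0.0169% and 0.0191%, and of detected probes 0.0221% and 0.059%. As raised, 0.182% and 0.0974% of all probes were called, and 0.251% and 0.103% of detected probes. The 3 members were ILMN_1658144 at -0.88 (SE 0.11, adjusted p = 1.03e-05 in limma) and those at ranks 26 and 59. The rank 26 member had an interaction of -0.47 (SE 0.10, adjusted p = 0.0332), with 651.7 ± 10.75 (SD, n = 3) in siSUZ siBRM-IFN and 393.2 ± 3.536 in siSUZ siBRM+IFN arrays against 780.2 ± 11.95 and 651.8 ± 13.96 in siCtrl siBRM cells. The rank 59 member had one of -0.60 (SE 0.12, adjusted p = 0.0309), with 885.9 ± 34.38 and 566.2 ± 43.4 in siSUZ siBRM cells against 872.5 ± 82.82 and 841.3 ± 28.33 in siCtrl siBRM cells. The difference between siBRM cells and cells without siBRM in this interaction, the 3-way term, was called for 0 members and 1 probe in all (0.00212%), and 17 members (18.7%, beside 2.95% of detected probes) had an unadjusted p under 0.05 for it. For ILMN_1658144 the 3-way term was -0.73 (SE 0.16, adjusted p = 0.392).

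Whether siBRM changed the fall was tested in the same way. In limma 0 members were called in either direction, beside 0.0169% of all probes raised and 0.00635% lowered and beside 0.0369% and 0% of detected probes, while 18 members had an unadjusted p under 0.05, all with a deeper fall in siBRM cells. The share at that unadjusted p was 19.8% of members and 5.2% of detected probes. The interaction was below 0 for 76 of 91 members (83.5%), beside 50.7% of detected probes, with a median of -0.07 and a range from -0.29 to 0.12. The lowest value belonged to the rank 22 member, whose falls were 0.24 and 0.25 on the log2 scale without siBRM and 0.40 and 0.68 with it (adjusted p = 0.797). Quantile normalization, neqc, median scaling, a moderated variance with a trend, the replicate block and each left-out replicate also gave 0 members.

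In cells that all had IFNγ, SUZ12 knockdown moved members in both directions, as it did detected probes as a whole. In siSUZ+IFN minus siCtrl+IFN arrays 21 members (23.1%) had a higher level and 26 (28.6%) a lower one by limma, with adjusted p under 0.05. The background was 7.28% of all probes raised and 6.95% lowered, and 18.6% and 20.4% of detected probes, and the members' shares stood somewhat above those of detected probes in each direction. The raised probes of the opposite rule were unevenly divided, with 47.2% raised and 13.4% lowered. Member differences ran from -0.87 to 0.89 with a median of -0.01. The rule's limit on the untreated siSUZ12 difference applied to members and not to detected probes. Its part in these shares and in this range was not tested. With fewer arrays per group, leaving out replicate 1, 2 or 3 gave 17, 16 and 20 lowered members and 17, 19 and 20 raised members.

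ILMN_1658926, at rank 40, had the largest rise with siSUZ12. Its signals were 196.6, 184.4 and 199.2 in siCtrl+IFN arrays and 351.9, 388.8 and 338.6 in siSUZ+IFN arrays, a difference of 0.89 (SE 0.08, adjusted p = 1.68e-10 in limma). The untreated arrays gave 227, 247.2 and 257.6 with siCtrl and 435.2, 449.5 and 473.9 with siSUZ, so the siRNA groups stood apart by more than the IFNγ fall of 0.35 on the log2 scale. ILMN_1668194, at rank 30, had 148.1, 139.2 and 150.3 in siCtrl+IFN arrays and 265.4, 254.7 and 261.1 in siSUZ+IFN arrays, a difference of 0.84 (SE 0.08, adjusted p = 9.1e-10). For both probes siSUZ arrays with IFNγ were above every siCtrl array without it, the highest of which read 257.6 and 193.3.

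The largest fall with siSUZ12 was that of the rank 60 member. Its signals were 1886, 1858 and 1785 in siCtrl+IFN arrays and 990.8, 1008 and 1018 in siSUZ+IFN arrays, a difference of -0.87 (SE 0.07, adjusted p = 3.59e-11 in limma). ILMN_1791366, described above, followed with -0.80 (SE 0.08, adjusted p = 1.49e-09). In untreated cells, where the rule limited this difference to under 1 in size, the members ran from -0.64 to 0.94 with a median of 0.11, and these values were not tested. The 6 probes left out by that limit had untreated siSUZ12 differences from 1.02 to 2.56, all upward.

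In siBRM cells, averaged over untreated and treated arrays, siSUZ12 raised 27 members (29.7%) and lowered 26 (28.6%) in limma. The background was 8.22% raised and 5.36% lowered over all probes, and 19.2% and 17.4% over detected probes. The differences ran from -0.70 at rank 73 (SE 0.06, adjusted p = 1.3e-11) to 0.63 for ILMN_1668194 (adjusted p = 2.3e-10). The rank 73 member averaged 617.3 ± 28.07 and 510.8 ± 7.186 (SD, n = 3) in siCtrl siBRM cells without and with IFNγ, and 402.5 ± 22.85 and 298.8 ± 14.75 in siSUZ siBRM cells.

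This comparison shares no array with the one made in cells with IFNγ and no siBRM. Of the 21 members raised there, 16 were raised and 0 lowered in siBRM cells, and of the 26 lowered there, 17 were lowered and 3 raised. Among detected probes 68.7% of the raised were raised again and 62.1% of the lowered were lowered again. Across the 91 members the 2 differences had a Pearson r of 0.744 and a Spearman rho of 0.744, beside 0.829 and 0.779 across detected probes. The rule limited the untreated siSUZ12 difference of members, which ran from -0.64 to 0.94. Detected probes were not limited and ran from -2.82 to 3.23. The part of this limit in the lower correlations of members was not tested. Probes are not independent replicates, and no p was computed.

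The 3 members that siSUZ12 lowered in cells with IFNγ and no siBRM and raised in siBRM cells held ranks 67, 86 and 87, and were chosen for mention after their values were seen. Rank 86 read 1081, 1087 and 1071 in siCtrl+IFN arrays and 841.2, 748.9 and 824.7 in siSUZ+IFN arrays, a difference of -0.43 (SE 0.07, adjusted p = 2.32e-05 in limma). Its untreated arrays without siBRM overlapped, at 1106, 1165 and 1128 with siCtrl and 1128, 1122 and 1056 with siSUZ, a difference of -0.04. In siBRM cells it read 1064, 975.1 and 1051 with siCtrl and 1350, 1343 and 1336 with siSUZ when untreated, and 849, 869.8 and 864.5 against 969.4, 1031 and 989 with IFNγ, a difference of 0.30 (SE 0.05, adjusted p = 3.22e-05). The siRNA groups did not overlap with IFNγ and no siBRM, nor in siBRM cells at either state, and their order differed between the 2. At ranks 67 and 87 the differences were -0.49 and -0.31 with IFNγ and no siBRM and 0.24 and 0.21 in siBRM cells, and their untreated differences without siBRM were -0.19 and -0.18. In siBRM cells their siRNA groups stood apart when untreated but overlapped with IFNγ. With IFNγ, rank 67 read 639.5, 617.5 and 733.5 with siCtrl and 772.5, 663.7 and 748.2 with siSUZ. Rank 87 read 207.2, 184.9 and 193.2 with siCtrl and 215.5, 197 and 222.2 with siSUZ. An opposite pair of calls was seen for 11.5% of the members lowered with IFNγ and no siBRM and for 0.614% of such detected probes. The siBRM values average untreated and treated arrays, whereas the others come from treated arrays alone.

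Transfection of siBRM moved members in both directions as well. Averaged over the siSUZ12 and IFNγ states, 26 members were raised and 21 lowered in limma, beside 4.72% and 4.95% of all probes and 14.5% and 13.7% of detected probes. Without replicate 3 the raised count was 16, and without replicate 2 the lowered count was 12. The total siRNA dose moved with siBRM, and its part in these values was not tested.

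The member at rank 61 had the largest fall, -0.57 (SE 0.04, adjusted p = 3.24e-14 in limma). It read 2896, 2975 and 2865 in siCtrl-IFN arrays and 1755, 1789 and 1763 in siCtrl siBRM-IFN arrays, and with IFNγ 2382, 2302 and 2217 against 1456, 1351 and 1337. Its fall with IFNγ was of like size in both, at 0.34 and 0.36 on the log2 scale. ILMN_1791366 had a siBRM difference of -0.57 (SE 0.04, adjusted p = 8.27e-13). The largest rise was 0.53 (SE 0.05, adjusted p = 1.63e-10) at rank 42, which read 209.9, 243.4 and 208.5 in siCtrl-IFN arrays and 356.9, 371.2 and 364.3 in siCtrl siBRM-IFN arrays. In siCtrl cells this member's arrays with IFNγ, at 220.3, 194.8 and 209.9, overlapped the untreated ones, whereas in siCtrl siBRM cells they read 313.5, 255.7 and 283 and did not.

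Over the 3 comparisons together, siSUZ12 with IFNγ, siSUZ12 in siBRM cells and siBRM, 8 members were lowered in all and 8 were raised in all, or 8.79% each. The background for being lowered in all was 1.18% of all probes and 3.94% of detected probes, and for being raised in all 1.38% and 4.24%. The comparisons share arrays, so these overlaps were not tested. Another 10 members (11%) were raised in one comparison and lowered in another, beside 5.6% of detected probes, and 12 (13.2%) were called in none, beside 40.3%.

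The order of the 8 group means varied among members accordingly. Because every member was lower with IFNγ in each background, its lowest mean had to be a +IFN group and its highest a -IFN group. The lowest mean was siSUZ siBRM+IFN for 31 members, siCtrl+IFN for 29, siSUZ+IFN for 22 and siCtrl siBRM+IFN for 9. The highest mean was siSUZ siBRM-IFN for 30, siSUZ-IFN for 27, siCtrl-IFN for 20 and siCtrl siBRM-IFN for 14. An extreme example of a member with its highest level after SUZ12 knockdown was rank 18. Its untreated siSUZ12 difference of 0.94 was the highest of any member, just under the rule's limit of 1, beside a member median of 0.11. It had means of 2781 ± 96.29 (SD, n = 3) in siCtrl-IFN and 5322 ± 313.6 in siSUZ-IFN arrays. With IFNγ it averaged 2379 ± 64.2 and 4094 ± 103.6 in the same siRNA groups, so its treated siSUZ arrays remained above its untreated siCtrl mean.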

How the data were processed

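The authors hybridized cRNA to Human-HT-12 BeadChips and deposited 1 table with the intensity of each probe in each of 24 arrays, before normalization between arrays. The deposited detection p-value beside each intensity was read as detected when under 0.01. BeadStudio is named in the submitters' processing notes, and background subtraction is not given in the sources used here. Groups and replicate numbers came from the sample titles, and all 24 columns were used. No 2 arrays were identical (0 pairs).

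Intensities were multiplied by a factor per array that brought all arrays to their common mean, and were then converted to log2. A linear model (limma 3.58.1 under R 4.3.3, with lmFit, contrasts.fit and eBayes, two-sided) was fitted to all 47231 probes and 24 arrays with a mean per group and 16 residual degrees of freedom per probe, and p-values were adjusted by Benjamini-Hochberg over all probes of a contrast. The contrasts tested have zero covariance with the IFNγ average that chose the members, but the SUZ12 by IFNγ interaction includes the untreated siSUZ12 difference that the rule limited. The script was tested on simulated data. Intensities carry no counting depth, so precision rests on the 3 arrays of a group.

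The members, gene lists and contrasts were chosen with earlier results of these data known. The naming rule took the members with the lowest IFNγ difference, those nearest the cut, the extremes of signal and the largest called changes of each contrast. Because the files hold no gene names, its gene lists and markers could not be applied, and at most 2 probe IDs that rose and 2 that fell were printed for a comparison. Alternatives were quantile normalization, median scaling, neqc with an offset of 16, detected probes only, a trended and robust variance, a replicate block, other cuts and leaving out each replicate.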

Additional observations from a re-analysis of the deposited data

Results flagged for a closer look

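The interaction of SUZ12 knockdown and IFNγ passed limma's test for 1 member over all cells and for 3 members in siBRM cells. ILMN_1658144 had an interaction of -0.52 (adjusted p = 0.000166) over all cells and of -0.88 (adjusted p = 1.03e-05) in siBRM cells. The rank 26 member, ILMN_2157240, had -0.47 (adjusted p = 0.0332) and the rank 59 member, ILMN_1730999, had -0.60 (adjusted p = 0.0309) in siBRM cells. Over all cells these last 2 did not pass, with -0.26 (adjusted p = 0.137) and -0.31 (adjusted p = 0.194). In each of the 3 the fall was deeper with siSUZ12 in siBRM cells. The readings in siBRM cells alone were added after the data were seen.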

How the results depend on the processing

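Of 170 recomputed values, 153 kept their direction and their side of the threshold or stayed within 1.5 times, 16 moved, 1 fell short of the threshold and 0 reversed. The count of members with a deeper fall under siSUZ12 was 1, and it became 2 with quantile normalization, 4 with neqc, 5 over detected probes only, 5 with a trended and robust variance, 2 with the replicate block and 0 to 1 without one replicate. By readings chosen after seeing the data it was 0 in cells without siBRM and 3 in siBRM cells. ILMN_1658144 was among the members called under all of these settings except in cells without siBRM and without replicate 3 (adjusted p = 0.0513, limma). Leaving out one replicate gave 16 to 20 members lowered by siSUZ12 with IFNγ, 16 to 21 raised by siBRM and 12 to 16 lowered by siBRM. The number of members was 285 with neqc (87 shared with the 91), 98 with quantile normalization (90 shared) and 69 with median scaling (68 shared). It was 19 at a cut of -0.4 and 452 at a cut of -0.2. Scored under quantile normalization, the median in replicate 2 of probes chosen without it was -0.32. All 91 members stayed lower with IFNγ under quantile normalization (median -0.35), median scaling (-0.33) and neqc (-0.44). Of the 91, those still at -0.3 or less numbered 90, 68 and 91 in the same order. The cause of these shifts was not tested, apart from the cuts and left-out arrays, which change the numbers by construction.

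The replicate numbers are shared by the groups, but same-numbered arrays did not deviate together throughout. Their residual correlations were 0.07 to 0.40 for replicate 1, -0.11 to 0.10 for replicate 2 and -0.03 to 0.31 for replicate 3, and 16 of 24 arrays correlated best with their own number. The block changed no other count by over 1.5 times. The weakest members lie near the detection limit, where the array gives no count of molecules, and a residual SD of 0.09 on the log2 scale with 3 arrays a group leaves interactions of the usual size among members uncalled.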
